A study of Mus musculus with 14 samples.

Results

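The 34 genes described here belong to 2 linked stress programmes of mouse cells, the unfolded protein response of the endoplasmic reticulum (ER) and the ATF4 branch of the integrated stress response. They were chosen by symbol from the deposited count table, where all 34 were found among 47937 gene rows, and all 34 passed the filter on low counts that left 13061 genes for testing. By role, 9 are ATF4 and other factors of its branch, which include targets such as Chac1 and are called ATF4 regulators here. A further 7 are amino acid and one-carbon genes and other ATF4 targets, and 2 are ER stress transcription factors. Of the rest, 13 are ER chaperones and folding factors, and 3 serve ER-associated degradation. The libraries were made from poly(A) RNA of wild-type bone marrow-derived macrophages, that is, macrophages grown in culture from precursors in marrow. There were 6 libraries of untreated cells, 5 of cells given mast cell supernatant and 3 of cells given the supernatant labelled mast cell intracellular trap, called trap supernatant here, each treatment lasting 3.5 h. The labels place the libraries in 3 batches, with 2, 2 and 2 untreated, 2, 1 and 2 mast cell supernatant, and 1, 1 and 1 trap supernatant libraries. All groups share the wild-type genotype and the cell type, and the labels give no age, sex or number of mice. They say nothing of how the supernatants were made, and there is no library with a supernatant of other cells or with medium alone. The series' title places the work in a study of neutrophil trapping by mast cells, and the comparisons ask what each supernatant does to macrophage transcripts and whether the supernatants differ.

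When unfolded proteins build up in the ER, the sensors PERK, IRE1 and ATF6 start a response that raises the chaperones of the ER lumen, widens the route by which misfolded proteins are degraded, and slows translation. PERK shares with other kinases the phosphorylation of eIF2α, which lowers overall protein synthesis and yet favours translation of the transcription factor ATF4, so that amino acid shortage, haem loss, viral RNA and ER stress meet in the same set of targets. Macrophages make and secrete much protein, and these programmes are also drawn on when innate immune receptors are engaged.

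Some of these genes carry known stress elements in their promoters. Many chaperone genes of the unfolded protein response carry the ER stress response element (ERSE), which is CCAAT and CCACG with 9 bases between them, read by NF-Y with ATF6 or XBP1, or the related ERSE-II, which is ATTGG and CCACG with 1 base between them, whereas ATF4 acts with C/EBP partners at composite elements of the form TGATGNAA (CARE). RefSeq promoters (GRCm38.p6, 250 bases before to 50 after the start) were found for 30 of the 34 genes, without Eif4ebp1, Atf6, Hyou1 and Manf. On either strand, ERSE was present in 8 of the 30 (26.7%), namely Hspa5, Hsp90b1, Dnajc3, Pdia6, Calr, Canx, Creld2 and Syvn1, against 37 of 27025 genes with a promoter in the table (0.137%). ERSE-II was found in Herpud1 alone among the 30, against 12 of all genes (0.0444%). The CARE letters were found in 5 of the 30 (16.7%), namely Trib3, Chac1, Asns, Vldlr and Herpud1, against 4.51% of all genes with a promoter. The XBP1 motif TGACGTGG was in none of the 30 and in 0.714% of all genes with a promoter. No gene of the 30 held both ERSE and ERSE-II, and in Herpud1 the ERSE-II and CARE matches shared no base. A match is a description of letters and not of binding. Genes and elements were both chosen as known parts of these pathways, so the larger shares among the 30 are no test. The windows shown come from the 4 chaperone genes that rose with mast cell supernatant, from Canx, which has the same element and did not pass the test, and from 3 genes with the other elements. Each is written 5′ to 3′ on the gene's strand with 5 bases on either side, and the capitals mark the match, which reads in reverse complement in the second Hsp90b1 window and in Calr and Chac1.

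Hspa5 ERSE, chr2:34772020-34772048, plus strand, 65 to 47 bases before the start: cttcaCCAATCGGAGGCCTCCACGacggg
Hsp90b1 ERSE, chr10:86705633-86705661, minus strand, 212 to 194 bases before the start: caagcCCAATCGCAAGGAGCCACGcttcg
Hsp90b1 ERSE, chr10:86705528-86705556, minus strand, 107 to 89 bases before the start: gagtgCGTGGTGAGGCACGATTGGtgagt
Pdia6 ERSE, chr12:17266486-17266514, plus strand, 98 to 80 bases before the start: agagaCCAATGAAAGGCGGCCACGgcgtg
Calr ERSE, chr8:84847070-84847098, minus strand, 162 to 144 bases before the start: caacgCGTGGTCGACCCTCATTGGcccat
Canx ERSE, chr11:50325795-50325823, minus strand, 145 to 127 bases before the start: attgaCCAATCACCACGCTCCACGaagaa
Herpud1 ERSE-II, chr8:94386372-94386392, plus strand, 52 to 42 bases before the start: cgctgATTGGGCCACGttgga
Asns CARE, chr6:7693220-7693237, minus strand, 23 to 16 bases before the start: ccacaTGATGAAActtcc
Chac1 CARE, chr2:119351044-119351061, plus strand, 193 to 186 bases before the start: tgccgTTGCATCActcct

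Each of the 4 chaperone genes that rose holds CCAAT and CCACG with a different spacer of the same length, and Hsp90b1 holds the element in both orientations. Dnajc3, Canx, Creld2 and Syvn1 also hold ERSE and were not past the test. Their log2 fold changes with mast cell supernatant were 0.03, 0.03, 0.23 and 0.06. The Hspa5 and Asns windows also lie in 1 annotated GENCODE transcript each, which begins before the RefSeq start.

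Total counts ran from 11729073 to 22720419 per library, and the 34 genes took 0.469% to 0.674% of them. Macrophage markers were detected in full (10 of 10) in every library. One untreated library stood apart on these genes. In batch 3, untreated replicate 6 was lower than untreated replicate 3 for 27 of the 34 genes and for 12 of the 13 chaperones, with a median log2 difference of -0.32 over the chaperones and of 0.00 over all genes tested. In the other 4 pairs of libraries of the same group and batch, the median over the 34 genes lay between -0.04 and 0.05. The batch 3 untreated pair also differed most over all genes tested. Its median absolute log2 difference was 0.18, against 0.08 to 0.14 in the other 4 pairs. Values of the genes past the test against untreated cells, and of Xbp1, Pdia4 and Manf, are also given without untreated replicate 6.

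Libraries of treated cells carried mast cell transcripts. All 20 listed mast cell markers summed to 7.49 to 10.2 counts per 1e6 counts of the library (CPM, scaled by TMM) in the untreated libraries, where 5 to 10 were detected, to 88.0 to 1550 CPM with mast cell supernatant and to 91.8 to 2233 CPM with trap supernatant, where 19 or 20 were detected. Of the 19 tested, 13 were higher with mast cell supernatant and 11 with trap supernatant. The mast cell proteases Mcpt4 and Tpsb2 had 0 counts in the untreated libraries. By batch, the sum was 88.0 and 118 CPM in batch 1, 1550 CPM in batch 2, and 317 and 255 CPM in batch 3 with mast cell supernatant, and 91.8, 833 and 2233 CPM with trap supernatant. The part of these transcripts in the results below was not tested. Of 13 neutrophil markers, none was past the test in either comparison, and their sum ran from 124 to 428 CPM untreated, 98.7 to 373 CPM with mast cell supernatant and 109 to 363 CPM with trap supernatant. The 10 macrophage markers summed to 8970 to 18603 CPM untreated, 8869 to 20017 CPM with mast cell supernatant and 8852 to 18941 CPM with trap supernatant. In every group their sum was highest in batch 1 and lowest in batch 3. With mast cell supernatant 1 of the 10 rose and 1 fell, and with trap supernatant none rose and 1 fell.

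In the untreated macrophages, 4 of the 13 ER chaperones and folding factors held the 4 highest levels of the 34 genes, and the other 9 ranked between 7 and 28. Per kilobase of exon, Calr, the lectin chaperone calreticulin, was at 351 CPM per kb (range 257 to 431 over 6 libraries), above every value of the next gene, Hspa5, at 181 CPM per kb (136 to 214). Hspa5 and the third, the disulfide isomerase Pdia3 at 157 CPM per kb (124 to 178), overlapped in range, as did Pdia3 and Hsp90b1 at 114 CPM per kb (93.0 to 131). The highest genes outside the chaperones were the amino acid transporter subunit Slc3a2 at 95.7 CPM per kb (69.4 to 130) and Atf4 at 88.1 CPM per kb (76.5 to 97.0), which also overlapped. The 5 lowest belonged to the ATF4 branch. The pseudokinase Trib3 was at 4.24 CPM per kb (2.77 to 5.88), the serine synthesis enzyme Phgdh at 3.87 (1.83 to 6.87), the mTORC1 inhibitor Ddit4 at 2.67 (2.04 to 3.31), the glutathione-degrading enzyme Chac1 at 1.57 (0.913 to 2.64) and the lipoprotein receptor Vldlr at 0.211 (0.0899 to 0.374).

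With mast cell supernatant, 6 of the 34 genes rose and none fell, against 2.17% of all 13061 genes tested that rose and 2.62% that fell (4.79% in either direction). The genes that rose were the ER chaperones Hspa5, Hsp90b1 and Calr, the disulfide isomerase Pdia6, and 2 genes of the ATF4 branch, Ddit3 and Sesn2. All changes were small, between 1.13- and 1.32-fold. With trap supernatant 1 gene rose, Hspa5, and none fell, against 0.919% and 0.796% of all genes (1.72% in either direction). The median log2 fold change over the 34 genes was 0.13 with mast cell supernatant and 0.10 with trap supernatant (0.10 and 0.07 without untreated replicate 6), beside -0.01 over all genes in each, and 30 and 24 of the 34 values were positive, beside 6314 and 6248 of 13061. Both comparisons use the same 6 untreated libraries, so their values are given side by side and not as independent. Tests are edgeR's quasi-likelihood F test on group and batch with Benjamini-Hochberg adjustment over all genes, called past the threshold at an adjusted p under 0.05. Libraries of the same group and batch count as separate samples in this test. The labels do not say that they are separate cultures or mice, so part of the spread may be technical. With replicates 1 to 3 of each group alone (9 libraries), the replicate number as a block is the same term as batch. In that fit, and in the fit without a batch term, none of the 34 was past the threshold with either supernatant. Without batch 1 the counts were 1 and 0. In RNA of whole cultures, fewer cells of a type and less RNA per cell cannot be told apart.

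**Figure D1:**
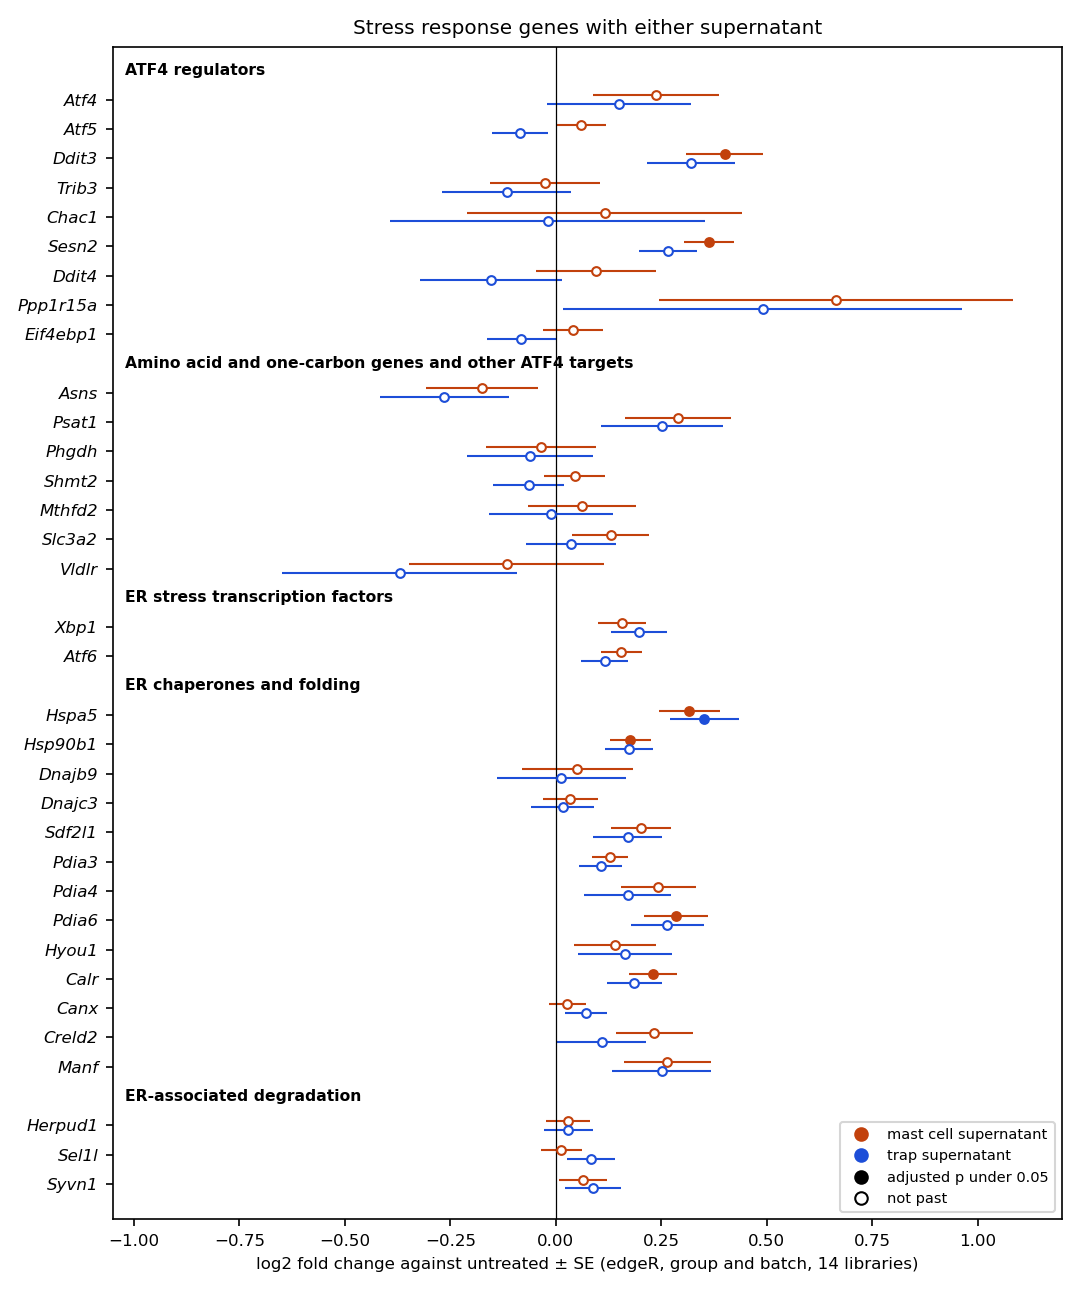
Log2 fold change against untreated with its SE (horizontal axis) for each of the 34 genes, by role, with mast cell supernatant (orange) and trap supernatant (blue); filled points are past an adjusted p under 0.05. All 13 chaperones lie above 0 with both supernatants, and Hspa5 is the gene filled in both.

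Of the 13 ER chaperones and folding factors, 4 rose with mast cell supernatant and 1 with trap supernatant, and all 13 had positive log2 fold changes with each, the median being 0.20 and 0.17. Without untreated replicate 6, all 13 values were positive with each and the medians were 0.14 and 0.08. With the replicate block 11 of 13 were positive with each, and leaving out 1 batch or 1 library gave 11 to 13 with mast cell supernatant (11 without its replicate 2, its batch 2 library) and 12 or 13 with trap supernatant. Within batches 1, 2 and 3 the median over the 13 was 0.10, 0.18 and 0.33 with mast cell supernatant. With trap supernatant it was 0.02, 0.16 and 0.29. Batch 3 also holds untreated replicate 6, and the part of that library in this order was not tested.

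Hspa5, at chr2:34771970-34777547 on GRCm38, encodes BiP, the Hsp70 of the ER lumen that binds unfolded proteins and holds the sensors inactive. It was at 870 and 903 CPM in the untreated libraries of batch 1, 702 and 683 in batch 2, and 851 and 574 in batch 3. With mast cell supernatant it was at 1071 and 1108 CPM in batch 1, 865 in batch 2, and 901 and 897 in batch 3, while the trap supernatant libraries held 1103, 877 and 940 CPM. The groups overlapped across batches, but within its own batch each of the 5 mast cell supernatant and each of the 3 trap supernatant libraries lay above both untreated libraries. The means were 764 ± 130 (SD, n = 6) untreated, 968 ± 112 (n = 5) with mast cell supernatant and 973 ± 117 (n = 3) with trap supernatant. The log2 fold change was 0.32 ± 0.07 (SE; adjusted p = 0.0175) with mast cell supernatant and 0.35 ± 0.08 (adjusted p = 0.0430) with trap supernatant, and the within-batch differences were 0.30, 0.32 and 0.36, and 0.32, 0.34 and 0.43. Without untreated replicate 6 the values were 0.24 (adjusted p = 0.0047) and 0.29 (adjusted p = 0.0077). The call with trap supernatant ended in 12 of the 14 fits that left out 1 library, and the call with mast cell supernatant in 1.

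Calr was the most abundant of the 34 transcripts and rose with mast cell supernatant. It lies at chr8:84841850-84846934, and its product retains glycoproteins in the ER until they are folded and stores calcium. It was at 1155 and 1241 CPM in the untreated libraries of batch 1, 1002 and 1029 in batch 2, and 895 and 739 in batch 3. Mast cell supernatant libraries held 1345 and 1387, 1136, and 1052 and 961 CPM, each above both untreated libraries of its batch. The trap supernatant libraries held 1216, 1228 and 977 CPM, of which 2 of 3 lay above both. The log2 fold change was 0.23 ± 0.06 (SE; adjusted p = 0.0275) with mast cell supernatant and 0.19 ± 0.07 (adjusted p = 0.209) with trap supernatant. Without untreated replicate 6 the first was 0.18 (adjusted p = 0.0429), and the call ended in 6 of the 14 fits without 1 library. Canx, its membrane-bound relative, was not past the test, at 410 ± 27.8 CPM untreated (SD, n = 6), 414 ± 39.0 with mast cell supernatant (n = 5) and 430 ± 14.4 with trap supernatant (n = 3), with log2 fold changes of 0.03 ± 0.04 and 0.07 ± 0.05 (SE; adjusted p = 0.787 and 0.612).

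Pdia6, at chr12:17266545-17284770, encodes a disulfide isomerase that works with BiP. Its untreated libraries were at 183 and 183 CPM in batch 1, 155 and 160 in batch 2, and 151 and 111 in batch 3. With mast cell supernatant it was at 202 and 201, 181, and 193 and 174 CPM, and with trap supernatant at 198, 191 and 174 CPM. All 8 treated libraries lay above both untreated libraries of their batch, while the groups overlapped across batches. The log2 fold change was 0.28 ± 0.08 (SE; adjusted p = 0.0427) and 0.26 ± 0.09 (adjusted p = 0.170). Without untreated replicate 6, the mast cell supernatant value was 0.20 (adjusted p = 0.0177), and 11 of the 14 fits without 1 library ended the call.

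Hsp90b1, at chr10:86690209-86705509, encodes GRP94, the Hsp90 of the ER, whose clients include Toll-like receptors and integrins. It was at 506 and 528 CPM in the untreated libraries of batch 1, 481 and 438 in batch 2, and 440 and 375 in batch 3, against 561 and 572, 519, and 477 and 476 CPM with mast cell supernatant and 551, 507 and 495 CPM with trap supernatant. Again every treated library was above both untreated libraries of its batch, by a small step. The log2 fold change was 0.18 ± 0.05 (SE; adjusted p = 0.0483) and 0.17 ± 0.06 (adjusted p = 0.158). Without untreated replicate 6 the first was 0.14 with an adjusted p of 0.0735, and the call ended in 13 of the 14 fits without 1 library. The short genes Gm15344 and Gm25745 share exon bases with it on the same strand, so the counting of those bases is uncertain.

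**Figure D2:**
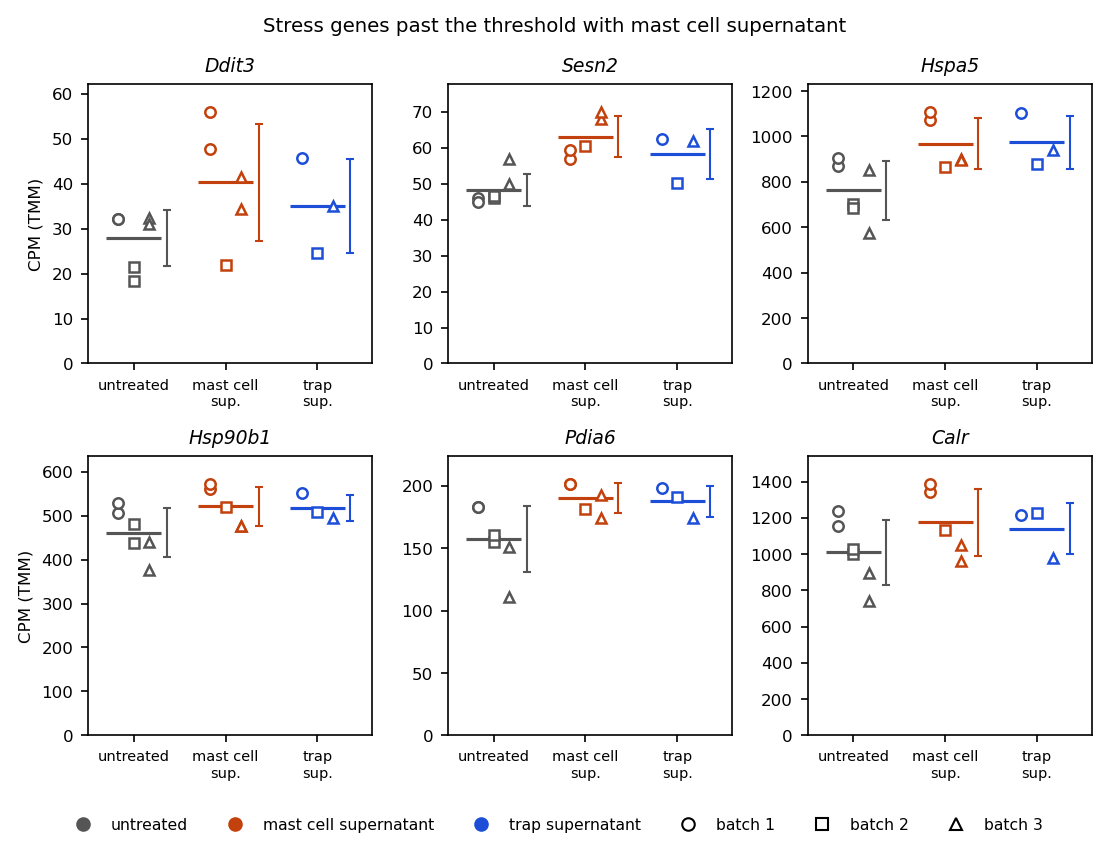
CPM (vertical axes, from 0) of the 6 genes past the threshold with mast cell supernatant, for each of the 14 libraries; colour gives the group, symbol shape the batch, the horizontal bar the mean and the vertical bar the SD. Sesn2 is the one gene in which all 5 mast cell supernatant libraries lie above all 6 untreated libraries.

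The position of each library against the untreated libraries of its own batch does not depend on the fit. By that measure, every mast cell supernatant library was above both untreated libraries of its batch for 11 of the 34 genes and below both for none, against 4.08% and 4.63% of all genes. Of the 11, 9 were chaperones or folding factors: Hspa5, Hsp90b1, Sdf2l1, Pdia3, Pdia4, Pdia6, Calr, Creld2 and Manf. The other two were Ddit3 and Sesn2. With trap supernatant, which has 3 libraries, the same held for 8 genes above and none below, against 7.89% and 8.13% of all genes, and these were Ddit3, Sesn2, Xbp1, Hspa5, Hsp90b1, Pdia6, Canx and Manf.

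The chaperones that did not pass the test had log2 fold changes from 0.03 for Canx to 0.26 for Manf with mast cell supernatant and from 0.01 for Dnajb9 to 0.26 for Pdia6 with trap supernatant. Sdf2l1, a BiP cofactor, was at 80.1 ± 15.5 CPM untreated (SD, n = 6), 94.6 ± 13.0 with mast cell supernatant (n = 5) and 89.1 ± 7.04 with trap supernatant (n = 3), a log2 fold change of 0.20 ± 0.07 and 0.17 ± 0.08 (SE; adjusted p = 0.122 and 0.400). For Pdia4, a disulfide isomerase, the lowest mast cell supernatant library, 90.2 CPM, lay just above the highest untreated library, 90.0 CPM, so that the groups did not overlap, with a log2 fold change of 0.24 ± 0.09 (SE; adjusted p = 0.146), which was 0.15 without untreated replicate 6 (adjusted p = 0.142). Manf, a secreted ER protein released on calcium loss, ran from 56.8 to 93.6 CPM untreated (median 80.3) and was at 96.9, 94.7, 84.9, 101 and 101 CPM with mast cell supernatant, a log2 fold change of 0.26 ± 0.10 (SE; adjusted p = 0.172), which was 0.16 without untreated replicate 6 (adjusted p = 0.123), and some of its exon bases are shared with Rbm15b. The cochaperone Dnajc3 had log2 fold changes of 0.03 ± 0.06 and 0.02 ± 0.08 (SE; adjusted p = 0.825 and 0.960).

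The ER stress transcription factors Xbp1 and Atf6, which turn on chaperone genes, had positive values that did not pass the test. Xbp1 ran from 113 to 152 CPM untreated (median 132), and was at 151, 149, 137, 155 and 152 CPM with mast cell supernatant and 156, 146 and 152 CPM with trap supernatant. Its log2 fold change was 0.16 ± 0.06 (SE; adjusted p = 0.139) and 0.20 ± 0.07 (adjusted p = 0.181), or 0.10 and 0.15 without untreated replicate 6 (adjusted p = 0.233 and 0.180), and all 3 trap supernatant libraries lay above both untreated libraries of their batch. Counts per gene do not separate the spliced Xbp1 transcript, which encodes the active factor, from the unspliced one. Atf6 had log2 fold changes of 0.16 ± 0.05 (SE; adjusted p = 0.0751) and 0.12 ± 0.06 (adjusted p = 0.394).

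None of the 3 genes of ER-associated degradation was past the test. Herpud1, which helps to assemble the ubiquitin ligase at the ER membrane and carries ERSE-II, was at 64.3 ± 6.85 CPM untreated (SD, n = 6), 66.5 ± 9.47 with mast cell supernatant (n = 5) and 65.7 ± 7.16 with trap supernatant (n = 3), a log2 fold change of 0.03 ± 0.05 with mast cell supernatant (SE; adjusted p = 0.811). The ligase Syvn1 and its partner Sel1l had values of 0.06 ± 0.06 and 0.01 ± 0.05 (SE). The median over the 3 was 0.03 with mast cell supernatant and 0.08 with trap supernatant.

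In the ATF4 branch, 2 of the 9 regulators rose with mast cell supernatant and none was past the test with trap supernatant. Sesn2, at chr4:132492032-132510501, encodes a leucine sensor that restrains mTORC1. It ran from 45.0 to 56.7 CPM in the untreated libraries (median 46.3) and was at 57.0, 59.5, 60.5, 68.1 and 70.0 CPM with mast cell supernatant and 62.5, 50.1 and 61.8 CPM with trap supernatant. The untreated and mast cell supernatant libraries did not overlap, and the batch 2 trap supernatant library fell inside the untreated range. The log2 fold change was 0.36 ± 0.06 (SE; adjusted p = 0.0021) with mast cell supernatant and 0.27 ± 0.07 (adjusted p = 0.0643) with trap supernatant. The within-batch differences were 0.36, 0.39 and 0.38 with mast cell supernatant, against 0.46, 0.11 and 0.22 with trap supernatant. The call with mast cell supernatant held in all 14 fits that left out 1 library, at 0.34 (adjusted p = 0.0036) without untreated replicate 6.

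Ddit3, at chr10:127290774-127296288, encodes CHOP, the transcription factor induced downstream of ATF4 that can lead to cell death in lasting ER stress. Untreated, it was at 32.2 and 32.1 CPM in batch 1, 18.3 and 21.4 in batch 2, and 32.4 and 31.1 in batch 3. Mast cell supernatant libraries held 47.8 and 56.0 CPM in batch 1, 21.9 in batch 2, and 41.6 and 34.4 in batch 3, and trap supernatant libraries held 45.7, 24.6 and 35.0 CPM. Batch 2 was the lowest in every group, and each treated library lay above both untreated libraries of its batch. The log2 fold change was 0.40 ± 0.09 (SE; adjusted p = 0.0175) and 0.32 ± 0.10 (adjusted p = 0.167), with within-batch values of 0.68, 0.14 and 0.25 and of 0.51, 0.31 and 0.14. Without untreated replicate 6 the first was 0.42 (adjusted p = 0.0237), and the call ended in 3 of the 14 fits without 1 library, at adjusted p up to 0.0540. Its exons overlap a second annotated locus named Ddit3 and, on the opposite strand, Gm4189 and Mars, so some reads could be split between them.

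Other targets of ATF4 and CHOP were not past the test. Trib3, which feeds back on ATF4 and CHOP, ran from 5.90 to 12.5 CPM untreated (median 8.71) and was at 10.1, 10.3, 4.23, 13.2 and 11.4 CPM with mast cell supernatant, a log2 fold change of -0.03 ± 0.13 (SE; adjusted p = 0.943), and -0.12 ± 0.15 with trap supernatant (adjusted p = 0.826). Ddit4 had 0.09 ± 0.14 and -0.15 ± 0.17 (SE; adjusted p = 0.773 and 0.777). Asns, which makes asparagine, ran from 28.8 to 90.6 CPM untreated (median 36.3) and was at 35.0, 38.5, 59.1, 32.3 and 25.7 CPM with mast cell supernatant, with log2 fold changes of -0.17 ± 0.13 and -0.26 ± 0.15 (SE; adjusted p = 0.511 and 0.510). Its wide untreated range lies between batches, as described below. Vldlr, at 2.13 ± 1.12 CPM untreated (SD, n = 6) and 20 to 63 counts per library, had -0.12 ± 0.23 and -0.37 ± 0.28 (SE; adjusted p = 0.833 and 0.634). None of the 7 amino acid, one-carbon and other target genes was past the test with either supernatant, and their medians were 0.05 and -0.06.

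Wider lists of the same pathways gave few calls. Of 12 sensors and translation control genes, 1 fell with mast cell supernatant, Eif2ak4, which encodes the amino acid sensing eIF2α kinase GCN2, from 52.2 ± 3.35 to 42.6 ± 4.68 CPM (SD, n = 6 and 5), a log2 fold change of -0.29 ± 0.07 (SE; adjusted p = 0.0287) with within-batch values of -0.19, -0.23 and -0.43. Of 47 other genes of ER folding, translocation and degradation that were tested, 1 rose, the signal peptidase subunit Sec11a, from 49.9 ± 3.66 to 56.8 ± 2.80 CPM, a log2 fold change of 0.19 ± 0.05 (SE; adjusted p = 0.0391). The median over the 47 was 0.05, with 37 positive. Of 37 other ATF4 and CHOP targets tested, none was past the threshold, 6 had an unadjusted p under 0.05, beside 2501 of all 13061 genes, and the median was -0.03 with 13 positive. With trap supernatant none of these 3 lists held a gene past the threshold, and 2, 4 and 2 genes had an unadjusted p under 0.05 among the sensors, the other ER genes and the other ATF4 and CHOP targets, beside 1666 of all genes.

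The supernatants were also compared with each other. None of the 34 genes was past the test between trap and mast cell supernatant, beside 0% of all genes with edgeR, and none of the 34 had an unadjusted p under 0.05, beside 569 of all genes. DESeq2 called 11 of all genes and limma-voom none, and neither called any of the 34. The log2 differences, trap minus mast cell supernatant, ran from -0.25 to 0.07 with a median of -0.04, and 27 of 34 were negative. For Hspa5 the difference was 0.04 ± 0.09 (SE), for Sesn2 -0.10 ± 0.07, for Ddit3 -0.08 ± 0.11 and for Ppp1r15a -0.17 ± 0.48, with 3 libraries on the trap side. That no gene passed does not show that the supernatants act alike.

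Responses were also compared between batches, where the spread comes from the 5 pairs of libraries of the same group and batch. Counts of these pairs differed by a chi-square per degree of freedom of 1.84 to 15.3. For the 23 pairs of the same group from different batches it was 32.2 to 82.2. The p-values below thus measure spread within a batch, which may be technical. The test of the group-by-batch terms called 5 of the 34 genes, against 9.29% of all genes, and 1 of the 34 with trap supernatant, against 3.75%. Neither count stands far from the share over all genes, so the genes are described one by one and not as a property of the 34. The 5 were Ppp1r15a, Dnajb9, Atf4, Slc3a2 and Chac1. In all 5 the within-batch difference with mast cell supernatant was positive in batch 1 and negative in batch 3, and the trap supernatant library of batch 1 also lay above both untreated libraries of its batch. The counts changed with the untreated libraries of batch 3, to 18 and 11 genes without replicate 3 and to 8 and 6 without replicate 6, while without untreated replicate 1 or 4 they were 2 and 1. Batch 1 was also the batch with the fewest mast cell transcripts, and the part of this in the result was not tested.

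Ppp1r15a, at chr7:45522916-45526268, encodes GADD34, which directs a phosphatase to eIF2α and so ends the translational block. Untreated, it was at 63.8 and 66.5 CPM in batch 1, 44.4 and 44.5 in batch 2, and 96.8 and 105 in batch 3. Mast cell supernatant libraries held 206 and 263 CPM in batch 1, 99.0 in batch 2, and 60.5 and 58.7 in batch 3. The trap supernatant libraries held 223, 53.9 and 76.7 CPM. Treated cells were thus above untreated cells in batches 1 and 2 and below them in batch 3. The within-batch log2 differences were 1.84, 1.15 and -0.76 with mast cell supernatant (adjusted p for the difference between batches 2.44e-09) and 1.77, 0.28 and -0.39 with trap supernatant (6.95e-07). The pooled log2 fold change, 0.66 ± 0.42 (SE; adjusted p = 0.432) and 0.49 ± 0.47 (adjusted p = 0.750), averages values of opposite sign. Tulp2 has exon bases on the opposite strand here, and the strand setting of the counting is not given in the sources used here.

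Atf4 itself stood above its untreated range in batch 1 and within it in batches 2 and 3. It ran from 180 to 229 CPM in the untreated libraries (median 209), and was at 300 and 392 CPM with mast cell supernatant in batch 1, 209 in batch 2, and 204 and 186 in batch 3. The trap supernatant libraries held 319, 204 and 192 CPM. The within-batch log2 differences were 0.74, -0.03 and -0.06 with mast cell supernatant (adjusted p between batches 0.0184) and 0.64, -0.06 and -0.08 with trap supernatant (adjusted p between batches 0.142). ATF4 is set mainly at translation, so its transcript does not measure the protein.

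Slc3a2, the heavy subunit of amino acid exchangers, followed the same order, with within-batch differences of 0.44, 0.02 and -0.09 with mast cell supernatant (adjusted p between batches 0.0307). In batch 1 it was at 324 and 346 CPM untreated and at 424 and 489 CPM with mast cell supernatant. Chac1 went from 1.72 and 1.72 CPM to 3.82 and 3.96 CPM in batch 1 and from 3.57 and 1.49 to 1.10 and 1.41 CPM in batch 3, with differences of 1.15, -0.05 and -0.86 (adjusted p between batches 0.0382), and the 2 untreated libraries of batch 3 differed as much as the groups did. Dnajb9, an ER cochaperone that keeps IRE1 in check, was at 33.1 and 32.3 CPM untreated and 41.6 and 49.8 CPM with mast cell supernatant in batch 1, and at 41.3 and 41.6 against 30.5 and 29.8 CPM in batch 3. Its differences were 0.48, 0.19 and -0.46 (adjusted p between batches 0.000645). The other 12 chaperones were not past this test.

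**Figure D3:**
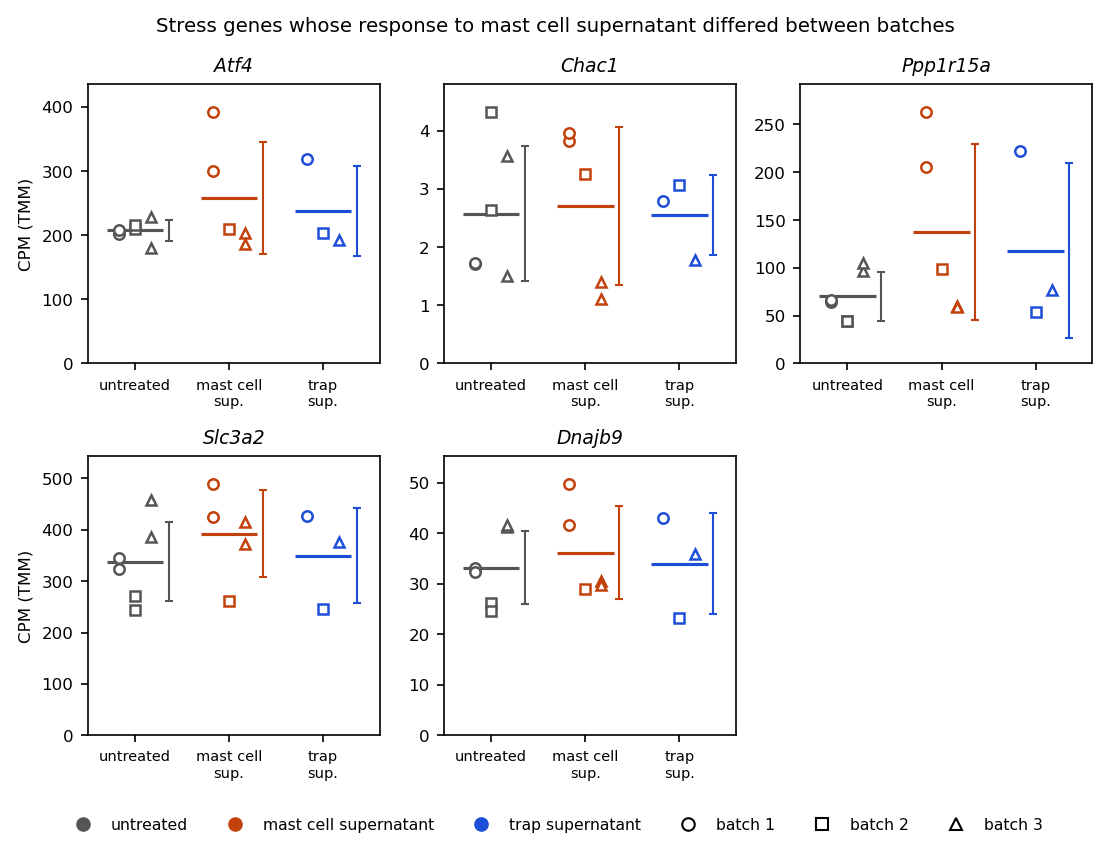
CPM (vertical axes, from 0) of the 5 genes whose response to mast cell supernatant differed between batches, in each of the 14 libraries; colour gives the group, symbol shape the batch, the horizontal bar the mean and the vertical bar the SD. The batch 1 treated libraries (orange and blue circles) of Atf4 and Ppp1r15a lie above every untreated library, and the batch 3 treated libraries (triangles) do not.

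**Figure D4:**
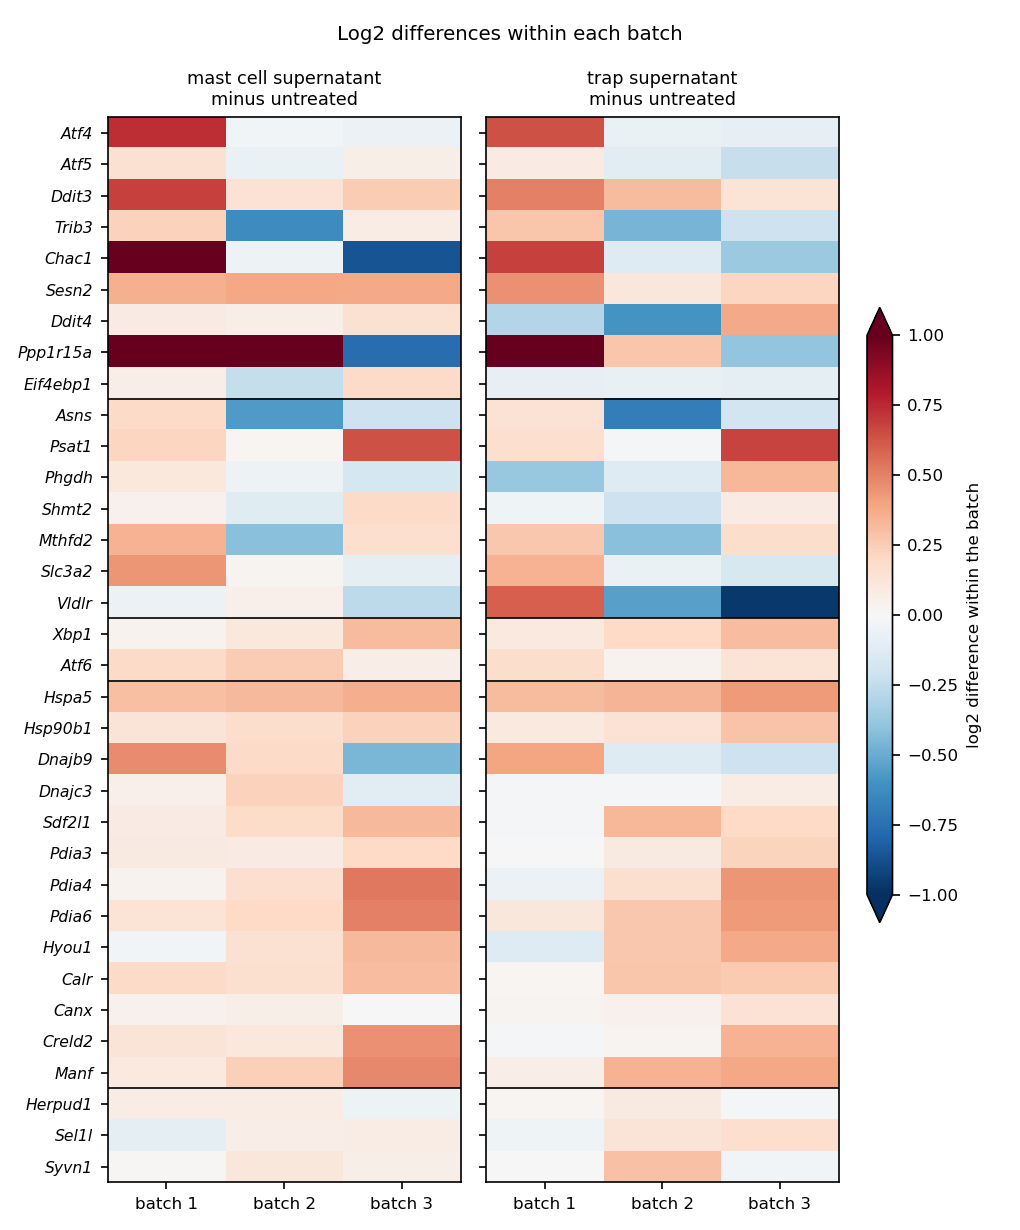
Differences of mean log2 CPM from the untreated libraries of the same batch, as colour from -1 to 1 (values past the ends take the end colours), for the 34 genes in rows by role and the 3 batches in columns, with mast cell supernatant at left and trap supernatant at right. The 9 regulators at the top are all red in batch 1 with mast cell supernatant and mixed in the other batches (median 0.36, -0.03 and 0.07). With trap supernatant Ddit4 (-0.29) and Eif4ebp1 (-0.08) are blue in batch 1. Most chaperones are red in every batch with mast cell supernatant. With trap supernatant they are mixed in batch 1, where their median is 0.02.

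The batch medians of the roles differed accordingly. Over the 9 ATF4 regulators the median within-batch difference was 0.36, -0.03 and 0.07 with mast cell supernatant and 0.46, -0.08 and -0.09 with trap supernatant. Over the 7 amino acid and one-carbon genes and other targets it was 0.19, -0.05 and -0.09, and 0.17, -0.20 and 0.08. Over the 13 chaperones it was 0.10, 0.18 and 0.33, and 0.02, 0.16 and 0.29, lowest in batch 1 and highest in batch 3. Batch 3 holds untreated replicate 6, which was lower than untreated replicate 3 for 12 of the 13. Any part of that library, or of the mast cell transcripts, in the order of the batches was not tested. Not every chaperone had this order, and Dnajb9 was at 0.48, 0.19 and -0.46 with mast cell supernatant. Whether the roles differ in this was not tested. Beside 9.29% of all genes past the test between batches with mast cell supernatant, there were 8 of the 37 other ATF4 and CHOP targets, 2 of the 12 sensors and translation control genes, and none of the 47 other ER genes, 4 of which had an unadjusted p under 0.05. With trap supernatant, beside 3.75% of all genes, these counts were 1, 1 and 0, with 1 of the 47 at an unadjusted p under 0.05.

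Batches also differed in the untreated cells. Both untreated libraries of batch 2 lay above the other 4 for 8 of the 34 genes and below them for 7, near the 23.2% and 23.5% of all genes that did so. Over all 14 libraries, every batch 2 library was above every other library for 5 genes and below for 4, against 8.88% and 9.97% of all genes. The 5 were Asns, Phgdh, Mthfd2, Shmt2 and Atf6, and the 4 were Ddit3, Trib3, Slc3a2 and Dnajb9. The shares among the 34 are near those of all genes, so the genes are described one by one and not as a property of the 34.

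Phgdh catalyses the first step of serine synthesis, and Shmt2 and Mthfd2 carry the serine carbon through the mitochondrial folate cycle. Phgdh was at 16.1 and 17.1 CPM in the untreated libraries of batch 2 and at 4.54 to 7.47 CPM in the other 4, a 2.73-fold difference of geometric means. Asns was at 84.8 and 90.6 CPM against 28.8 to 38.2 CPM, 2.68-fold higher. Mthfd2 was 2.20-fold and Shmt2 1.95-fold higher in the same libraries. In the treated libraries of batch 2, Asns was lower than in the untreated ones, at 59.1 CPM with mast cell supernatant and 54.2 CPM with trap supernatant, and Mthfd2 was at 59.2 and 59.0 CPM against 77.4 and 80.4 CPM untreated. Phgdh, at 16.0 and 15.2 CPM, was just below its untreated values. In the same batch Ddit3 and Slc3a2 were low, at 18.3 and 21.4 CPM and at 245 and 271 CPM untreated, where the other untreated libraries held 31.1 to 32.4 CPM and 324 to 457 CPM. Of the genes named here, some were thus higher and others lower in batch 2. Psat1, the next enzyme of serine synthesis, did not share the pattern, with 42.5 and 40.7 CPM in batch 2 and 20.4 to 43.7 CPM elsewhere.

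**Figure D5:**
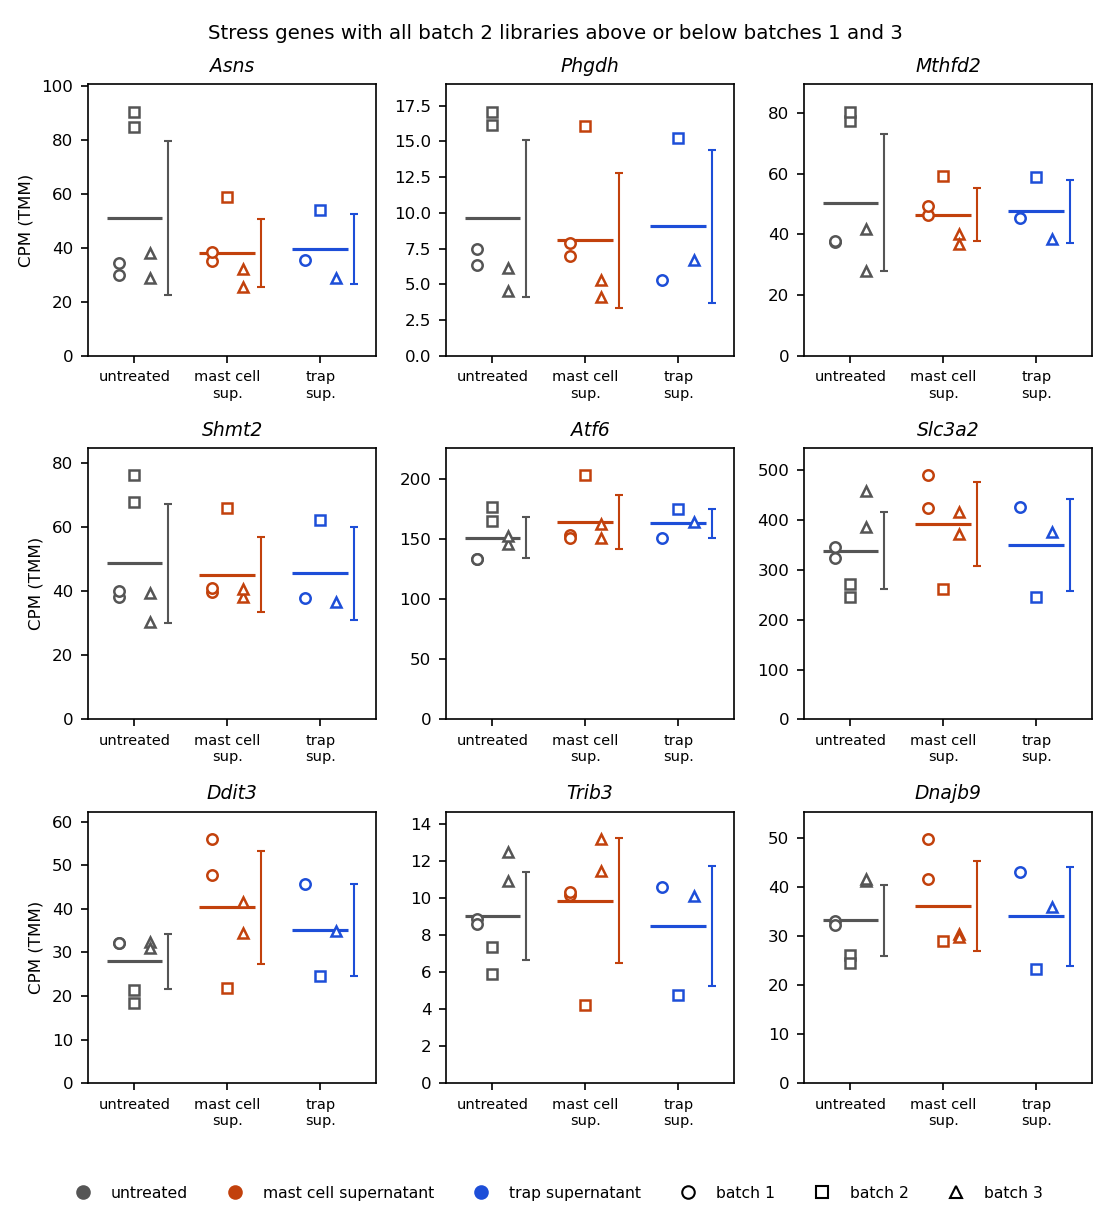
CPM (vertical axes, from 0) of the 9 genes for which all 4 batch 2 libraries (squares) lie above or below all libraries of batches 1 and 3, in each of the 14 libraries; colour gives the group, symbol shape the batch, the horizontal bar the mean and the vertical bar the SD. Asns, Phgdh, Mthfd2, Shmt2 and Atf6 are highest in batch 2, and Slc3a2, Ddit3, Trib3 and Dnajb9 are lowest there.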

How the data were processed

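The 14 poly(A) RNA libraries fall into 3 groups and 3 batches, per the labels. The values are read counts per gene, deposited without normalisation and made with featureCounts 2.0.0 on GRCm38, per the submitters' processing notes. The kit keeps strand, per the labels' protocols. Items not given in the sources used here include the aligner, the annotation release, filters and whether counting used strand. The labels do not say that replicates are separate cultures or mice, and p-values then measure only the spread between these samples, which may be technical.

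Symbols (47224 of 47937 rows) and coordinates came from GENCODE release M21 by identifier, and promoters from RefSeq. Counts were filtered with filterByExpr (13061 genes kept), scaled by TMM and fitted in edgeR 4.0.16 (R 4.3.3) with group and batch over 14 libraries (quasi-likelihood, robust), with Benjamini-Hochberg adjustment and a threshold of 0.05. The response by batch was tested with group-by-batch terms (5 residual degrees of freedom). Each SE was derived from the F statistic. Within-batch values subtract mean log2 CPM (prior count 1) of the untreated libraries. Total counts of 11729073 to 22720419 per library limit the precision of genes with few counts. The scripts were tested on simulated data. Alternatives were RLE size factors, other filters, DESeq2 1.42.0, limma-voom 3.58.1, other designs, and leaving out each batch or library.

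The 34 members and all lists were chosen with earlier results of these data known. Any member could be named, full statistics being given for members past a threshold and for Atf4, Ddit3, Trib3, Chac1, Asns, Ddit4, Ppp1r15a, Hspa5, Xbp1, Herpud1, Sdf2l1 and Vldlr. Of other pathway genes, those past the threshold with the smallest p were named, up to 4 per comparison and direction. Replicates 1, 2 and 3 of each group lie in batches 1, 2 and 3, per the labels, so the numbers pair the samples through the batch. Deviations from group means correlated at 0.30 to 0.71 over the 9 pairs with the same number and at -0.59 to 0.17 over the other 18.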

Additional observations from a re-analysis of the deposited data

Results flagged for a closer look

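Of 68 sets of 5 or 6 libraries (34 genes, 2 groups), 3 held 1 library far from the rest. The rule marks about 1 in 20 sets of independent values. These sets pool 3 batches, so that rate does not apply to them. Shmt2 in mast cell supernatant replicate 2 was at 66.1 CPM, the next library at 41.1 CPM (gap over range 0.898). Atf6 in the same library was at 203 CPM, the next at 163 CPM (0.765). Mast cell supernatant replicate 2 is the one library of its group in batch 2. For both genes all batch 2 libraries lay above all others. Hyou1 in untreated replicate 6 was at 130 CPM, the next at 186 CPM (0.773).

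For 5 genes the response to mast cell supernatant differed between batches, by edgeR's test of the group-by-batch terms, with adjusted p = 2.44e-09 for Ppp1r15a, 0.000645 for Dnajb9, 0.0184 for Atf4, 0.0307 for Slc3a2 and 0.0382 for Chac1. For Ppp1r15a the response to trap supernatant differed too (adjusted p = 6.95e-07).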

How the results depend on the processing

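With mast cell supernatant, the 6 genes that rose became 0 without a batch term, 0 with the replicate block (9 libraries), 1 without batch 1, 2 without batch 2 and 2 to 6 when 1 library was left out. With trap supernatant, the count of 1 became 2 without a filter, 2 with DESeq2, 0 without a batch term, 0 with the replicate block, 0 without batch 1, 0 without batch 2, 0 with the 2 groups alone and 0 to 2 when 1 library was left out. With the block, adjusted p for mast cell supernatant was 0.153 for Ddit3, 0.184 for Sesn2, 0.184 for Hspa5, 0.446 for Hsp90b1, 0.197 for Pdia6 and 0.237 for Calr, and 0.197 for Hspa5 with trap supernatant. The block is the same model of group and batch on fewer samples. Leaving out 1 library ended the call of Sesn2 in 0 of 14 fits, of Hspa5 in 1 (mast cell supernatant replicate 2, adjusted p = 0.0582), of Ddit3 in 3, of Calr in 6, of Pdia6 in 11 and of Hsp90b1 in 13, and of Hspa5 with trap supernatant in 12. Genes whose response differed between batches numbered 9 without a filter and 2 to 18 leaving out 1 library (main 5) with mast cell supernatant, and 5, 2 with the DESeq2 likelihood ratio test, and 1 to 11 (main 1) with trap supernatant. The count of 18 came without untreated replicate 3, and it was 8 without untreated replicate 6. Calls for Ppp1r15a and Dnajb9 were kept in all 13 such fits, those for Atf4 and Slc3a2 ended in 5 and that for Chac1 in 7. Fits that would leave a group and batch with no library were not run. Signs turned for Atf4 (-0.039) and Slc3a2 (-0.0344) with mast cell supernatant without batch 1, for Ppp1r15a with trap supernatant without batch 1 (-0.11), for Asns with mast cell supernatant without batch 2 (0.0013), for Syvn1 with trap supernatant without batch 2 (-0.0118) and without trap supernatant replicate 2 (-0.0067, range to 0.15), and for Shmt2 between supernatants without a batch term (0.0157). The cause was not tested. Of 2550 values compared, 156 changed sign, 149 of them within 1 SE of 0 and not called. RLE scaling changed no call.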
